A study of Mus musculus with 12 samples.

Results

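The interleukin-1 family of cytokines and their receptors was described in mouse skin at the site of tick feeding. Its members were chosen by gene symbol: the agonists Il1a, Il1b, Il1f9 and Il18, the antagonist Il1rn, and the receptor genes Il1r1, Il1r2, Il1rap and Il1rl2. All 9 were among the 25070 genes of the table, and all 9 were among the 17064 genes with at least 1 CPM (the reads of a gene scaled to the total reads of its library) in at least 2 of the 11 libraries that entered the tests. Il1f9 is the older symbol of Il36g. The study exposed mice to repeated tick infestations and sequenced RNA from skin biopsies, and the question was how the skin differs between a first and a later infestation. Naive skin had no bite (n = 2). The other groups were bitten skin from mice at a first exposure (n = 3), mice labelled ticks 2x (n = 3) or ticks 3x (n = 3) and 1 mouse labelled saliva immune, all taken 4 days after ticks had attached. Ticks 2x and ticks 3x are together called repeat exposure (n = 6), and all groups except naive and saliva immune are called bitten (n = 9). All 12 libraries were made from total RNA of skin, and no group is labelled with an allele, a transgene or a drug. The sources used here name neither the tick species nor the strain, sex or age of the mice.

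The labels do not say that each library came from a separate mouse, so p-values measure the spread between these samples, which may be technical. By their titles, the EF19-4 series holds first exposure and saliva immune, and the EF19-6 series holds all other libraries, so first exposure and title series cannot be told apart. Estimated depth was 12.5 to 29.8 M (mega) reads per library, at which 3 reads, used as the detection floor, equal 0.101 to 0.24 CPM. This floor covers counting error only. All 8 keratinocyte markers listed were above it in every library, with summed levels of 7780 to 25554 CPM. In whole tissue, fewer cells of a type and less RNA per cell cannot be told apart.

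Interleukin-1 alpha and interleukin-1 beta bind the same receptor, IL1R1, which signals after recruiting the accessory protein IL1RAP. The receptor antagonist encoded by Il1rn occupies IL1R1 without signalling, and IL1R2 is a decoy that binds the ligands but lacks a signalling domain. Keratinocytes store interleukin-1 alpha and make IL-36 gamma, whereas interleukin-1 beta is made largely by myeloid cells as a precursor that needs cleavage, as does interleukin-18. IL-36 gamma, the product of Il1f9, signals through the receptor encoded by Il1rl2 together with IL1RAP, while interleukin-18 has a receptor of its own.

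The genes lie on 4 chromosomes. In GRCm38 with GENCODE vM21 annotation, Il1f9 (chr2:24186476-24193568, plus strand), Il1rn (chr2:24336853-24351494, plus), Il1a (chr2:129299610-129309972, minus) and Il1b (chr2:129364570-129371139, minus) are on chromosome 2. Il1r2 (chr1:40074079-40125231), Il1r1 (chr1:40225080-40317257) and Il1rl2 (chr1:40324610-40367562) follow each other on the plus strand of chromosome 1. Il18 (chr9:50554827-50581840, plus) and Il1rap (chr16:26581704-26730117, plus) are elsewhere. Il1b and the antisense gene Il1bos overlap by 1243 bases, 25 of them exonic in both. Il1bos was at 0.0558 to 1.68 CPM, or 0.104% to 5.72% of Il1b, and whether the reads were counted by strand is not given in the sources used here.

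For Il1a, Il1b and Il1rn 1 promoter each is shown, because the levels of these genes are set against each other below. The agonists compete with the antagonist for the same receptor. Each sequence holds the 250 bases before a RefSeq start in GRCm38.p6, read 5′ to 3′ on the strand of the gene. Capitals mark the letters of 5 motifs searched on both strands: TATAAA, AP-1 (TGANTCA), C/EBP (TTGCNNAA), ETS (GAGGAA) and NF-kB (GGG, 2 free bases, TT, 1 free base, CC).
Il1a: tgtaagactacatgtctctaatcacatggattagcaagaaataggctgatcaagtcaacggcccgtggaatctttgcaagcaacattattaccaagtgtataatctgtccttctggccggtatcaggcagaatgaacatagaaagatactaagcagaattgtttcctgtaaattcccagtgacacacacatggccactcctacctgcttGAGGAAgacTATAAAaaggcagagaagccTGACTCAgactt
Il1b: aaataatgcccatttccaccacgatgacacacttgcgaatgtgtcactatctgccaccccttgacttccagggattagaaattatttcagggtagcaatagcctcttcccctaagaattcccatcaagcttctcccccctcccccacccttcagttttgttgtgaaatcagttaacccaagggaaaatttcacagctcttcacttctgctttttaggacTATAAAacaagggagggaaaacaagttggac
Il1rn: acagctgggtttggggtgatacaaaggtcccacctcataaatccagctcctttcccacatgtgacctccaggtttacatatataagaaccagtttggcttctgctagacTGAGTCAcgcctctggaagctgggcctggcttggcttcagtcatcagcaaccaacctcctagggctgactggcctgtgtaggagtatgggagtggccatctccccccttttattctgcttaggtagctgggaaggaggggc
Il1a (chr2:129309973-129310222, minus) had TATAAA beginning 32 bases before the start, an AP-1 match at 12 bases and an ETS match at 41 bases. Il1b (chr2:129371140-129371389, minus) had TATAAA at 31 bases and no other of the 5 motifs. The upstream promoter of Il1rn (chr2:24336610-24336859, plus) had an AP-1 match at 141 bases and no TATAAA. Of 32851 promoters of this length, 12.4% held TATAAA, 6.75% AP-1, 9.56% C/EBP, 23.3% ETS and 4.11% NF-kB. No 2 of the marked matches overlap, and a match is a description of letters, not a binding site. RefSeq promoters were found for all 9 genes, 12 promoters in all, and the single NF-kB match among them lay 51 bases before the start in the third promoter of Il1rn.

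Levels of different genes were compared per kilobase of merged exon (CPM/kb). This length joins the exons of all annotated transcripts of a gene, from 1.031 kb for Il18 to 11.36 kb for Il1rap. Where shorter transcripts are expressed the value is too low, so the order depends on this choice. Which transcripts were expressed was not tested. By the median over the 12 libraries the order was Il18 (30.8 CPM/kb), Il1r2 (30.0), Il1rl2 (17.7), Il1f9 (16.9), Il1rn (14.1), Il1b (12.6), Il1a (3.91), Il1rap (3.00) and Il1r1 (0.498). Neighbouring genes in this order had overlapping ranges over the libraries, except that Il1r1, at 0.263 to 0.689 CPM/kb, was the lowest of the 9 genes in all 12 libraries and lay below the Il1rap range of 1.81 to 4.47. The decoy receptor gene Il1r2, at 10.1 to 40.6 CPM/kb, was thus above the signalling receptor gene in every library. Il1b moved most in the order. It was the highest of the 9 genes in naive replicate 2 and in ticks 2x replicates 2 and 3, and the 8th in first exposure replicates 1 and 2 and in ticks 3x replicate 3.

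Il1b, the agonist of myeloid cells, had the widest spread. It was at 26.5 and 77.1 CPM in the naive libraries. In first exposure it was at 2.06, 1.11 and 10.3 CPM. In ticks 2x it was at 19.1, 329 and 122 CPM, in ticks 3x at 33.5, 47.7 and 3.49 CPM, and in the saliva immune library at 21.4 CPM. All 3 first exposure libraries lay below both naive libraries (the case for 14% of all genes tested) and below all 3 ticks 2x libraries (6.9% of all genes), while the ticks 3x values overlapped with every other group. The highest library had 295 times the lowest, and the SD of log2(CPM + 1) over 12 libraries, 2.18, was above that of 99.2% of the genes tested.

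**Figure D1:**
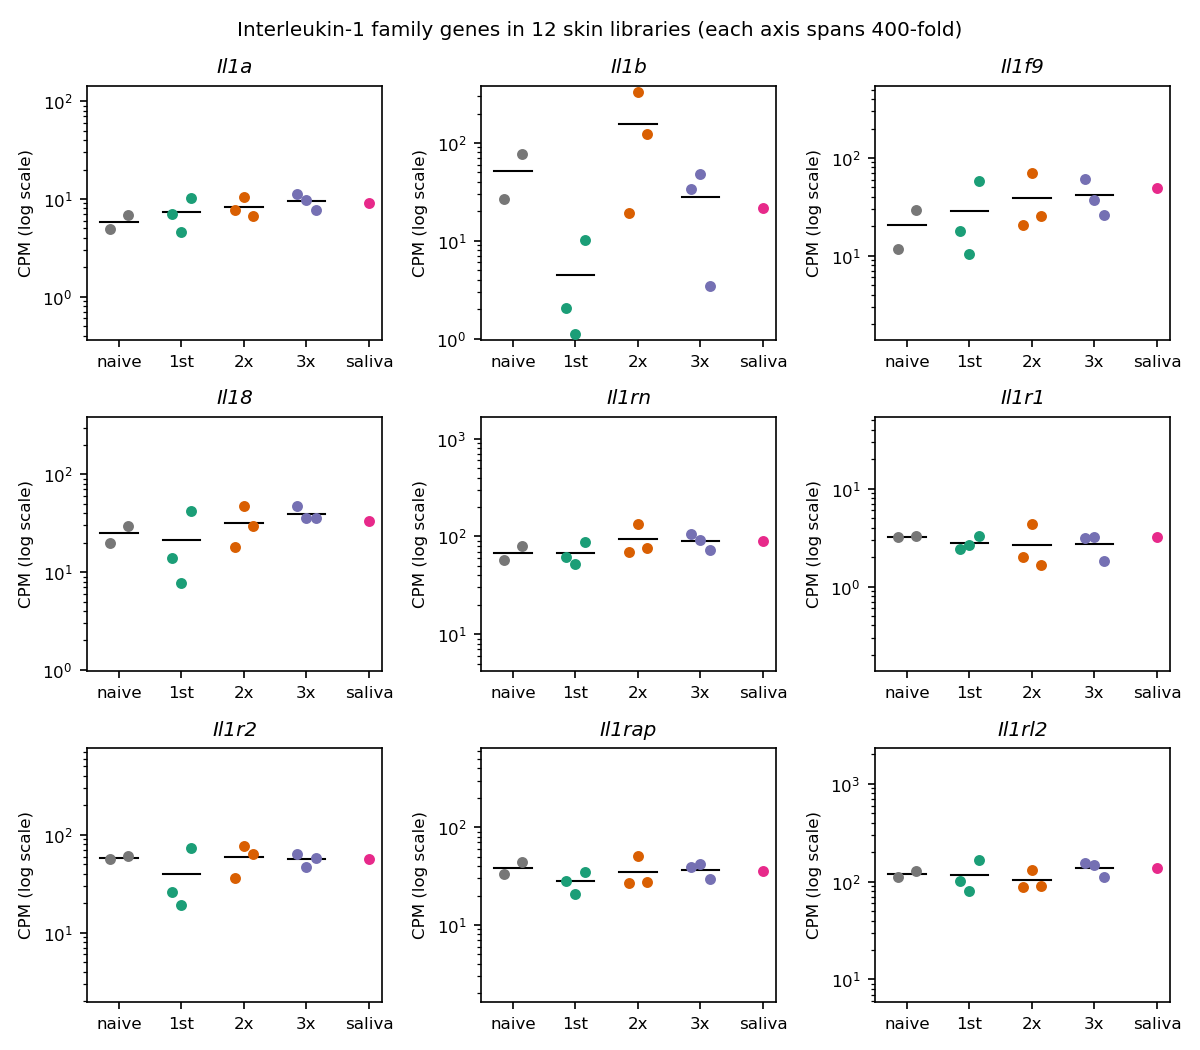
Level of each of the 9 genes in every library (points), in CPM on log axes that all span the same factor, by group, with bars at the group means. Il1b runs from 1.11 to 329 CPM with first exposure lowest, while Il1a and Il1rl2 stay within 2.45-fold and 2.08-fold ranges over the 12 libraries.

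In limma on log2(CPM + 1), with Benjamini-Hochberg adjustment over all genes tested, no comparison of Il1b passed an adjusted p of 0.05. The log2 difference of first exposure minus naive was -3.47 (SE 1.33, unadjusted p = 0.0276, adjusted p = 0.246). Ticks 2x minus first exposure gave 4.48 (SE 1.19, unadjusted p = 0.00418, adjusted p = 0.163), and ticks 3x minus first exposure gave 2.23 (adjusted p = 0.333). Repeat exposure minus first exposure gave 3.36 (SE 1.15, unadjusted p = 0.0145, adjusted p = 0.161). Against naive skin, Il1b differed by 1.01 in ticks 2x (SE 1.33, adjusted p = 0.834) and by -1.24 in ticks 3x (adjusted p = 0.901), and ticks 3x minus ticks 2x was -2.25 (adjusted p = 0.894). Bitten minus naive was -1.23 (SE 1.14, adjusted p = 0.733). Single libraries moved these last values widely: ticks 2x minus naive was 0.10 without ticks 2x replicate 2 and 2.12 without ticks 2x replicate 1, ticks 3x minus naive was -1.99 without naive replicate 1 and -0.18 without ticks 3x replicate 3, and bitten minus naive was -1.99 without naive replicate 1 and -0.48 without naive replicate 2. With array weights, which gave first exposure replicate 3 a weight of 0.276 in the fit of 4 groups and 0.279 in that of 3, the adjusted p was 0.0167 for first exposure against naive, where 25.6% of all genes were called, and 0.00169 for repeat against first exposure, where 51% were. These comparisons share libraries, so their values are not independent of each other.

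Il1a, the agonist stored in keratinocytes, had a narrow range. It was at 4.96 and 6.78 CPM in naive skin, 7.03, 4.57 and 10.3 in first exposure, 7.66, 10.5 and 6.70 in ticks 2x, 11.2, 9.76 and 7.76 in ticks 3x, and 9.14 in the saliva immune library. All 3 ticks 3x libraries lay above both naive libraries, as for 15.5% of all genes, while first exposure and ticks 2x overlapped with naive. The log2 difference of ticks 3x minus naive was 0.62 (SE 0.31, limma adjusted p = 0.768), that of bitten minus naive was 0.43 (adjusted p = 0.604), and that of repeat minus first exposure 0.30 (adjusted p = 0.46).

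Il1f9, the IL-36 agonist of the epidermis, was at 11.8 and 29.6 CPM in naive skin and at 17.8, 10.5 and 58.6 in first exposure. In ticks 2x it was at 20.7, 71.0 and 25.8 CPM, in ticks 3x at 61.6, 37.3 and 26.3, and in the saliva immune library at 49.3. Each bitten group overlapped with naive skin. The group means were 20.7 ± 12.5 CPM in naive (SD, n = 2), 29.0 ± 25.9 in first exposure (n = 3), 39.2 ± 27.7 in ticks 2x (n = 3) and 41.7 ± 18.1 in ticks 3x (n = 3). The log2 difference of bitten minus naive was 0.69 (SE 0.64, limma adjusted p = 0.736) and that of repeat minus first exposure 0.68 (SE 0.55, adjusted p = 0.469). Leaving out 1 library moved the former to 0.07 (naive replicate 1) or 1.32 (naive replicate 2), and the latter to 0.16 (first exposure replicate 2) or 1.35 (first exposure replicate 3).

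Il18 was at 20.01 and 30.0 CPM in naive skin, 14.0, 7.80 and 41.8 in first exposure, 18.1, 47.7 and 29.4 in ticks 2x, 47.7, 35.6 and 35.4 in ticks 3x, and 33.5 in the saliva immune library. The 3 ticks 3x libraries lay above both naive libraries, as for 15.5% of all genes. First exposure held both the lowest value and a value among the highest. Ticks 3x minus naive was 0.65 on the log2 scale (SE 0.60, limma adjusted p = 0.884). Repeat minus first exposure was 0.97 (SE 0.45, limma adjusted p = 0.251). Without first exposure replicate 3 this difference became 1.61 with an adjusted p of 0.0297, so that 1 library decided the call. Leaving it out also raised the calls over all genes from 140 to 2260 of 16943, so this shift is not particular to Il18.

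Il1rn, the receptor antagonist, was at 56.8 and 80.0 CPM in naive skin. It was at 61.7, 51.9 and 86.9 CPM in first exposure, 69.2, 133 and 76.4 in ticks 2x, 105, 92.1 and 73.0 in ticks 3x, and 89.4 in the saliva immune library. All groups overlapped, and the highest library had 2.57 times the lowest. The log2 difference of repeat minus first exposure was 0.44 (unadjusted p = 0.088, limma adjusted p = 0.295), and that of bitten minus naive was 0.25 (adjusted p = 0.786).

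Agonist and antagonist were set against each other as a log2 ratio of CPM within a library. It is not corrected for gene length, so only differences between libraries can be read. For Il1b over Il1rn it was -1.10 and -0.05 in naive skin, -4.90, -5.54 and -3.08 in first exposure, -1.86, 1.30 and 0.68 in ticks 2x, -1.65, -0.95 and -4.39 in ticks 3x, and -2.06 in the saliva immune library. The first exposure libraries lay below naive and ticks 2x and overlapped with ticks 3x. Repeat minus first exposure was 3.36 (two-sided exact permutation p = 0.0595 over 84 splits, adjusted p = 0.321 over the 6 ratio tests). The smallest p this design allows is 0.0119. Bitten minus naive was -1.69 (exact permutation p = 0.382 over 55 splits, adjusted p = 0.573). Il1a over Il1rn stayed between -3.67 and -3.07 in all 12 libraries, and its differences were 0.23 for bitten minus naive (exact permutation p = 0.2, adjusted p = 0.4) and -0.11 for repeat minus first exposure (exact permutation p = 0.488, adjusted p = 0.586).

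**Figure D2:**
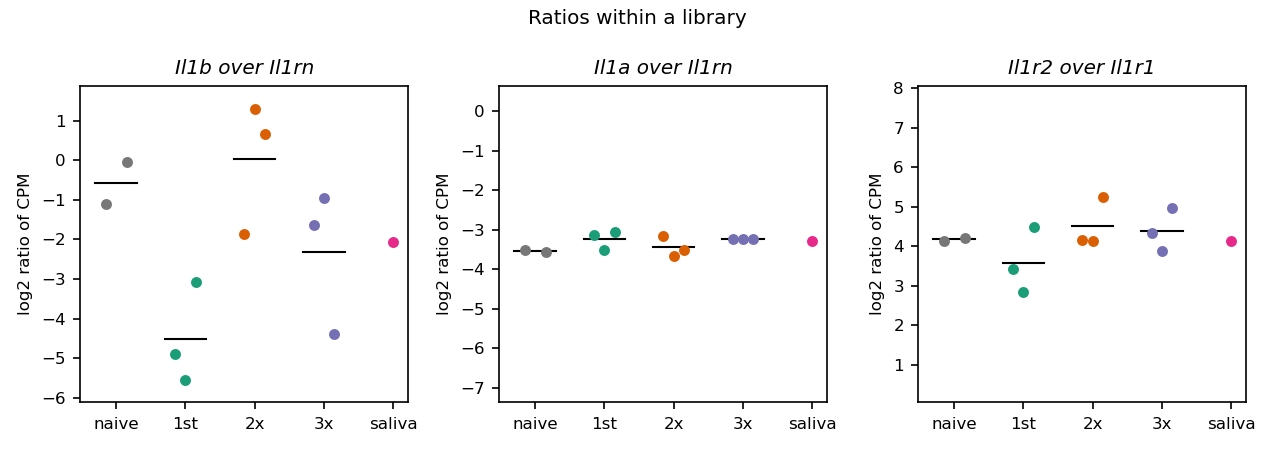
Log2 ratio of CPM within each library (points) for 3 gene pairs, by group, with bars at the group means and the same axis span in each panel. Il1b over Il1rn runs from -5.54 in first exposure to 1.30 in ticks 2x, while Il1a over Il1rn stays between -3.67 and -3.07.

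Among the receptors, the signalling receptor gene Il1r1 was at 3.19 and 3.28 CPM in naive skin, 2.41, 2.67 and 3.28 in first exposure, 2.02, 4.38 and 1.68 in ticks 2x, 3.16, 3.18 and 1.84 in ticks 3x, and 3.20 in the saliva immune library. The 3 ticks 3x libraries lay below both naive libraries, replicates 1 and 2 by little and replicate 3 by more, as for 9.58% of all genes, with a log2 difference of -0.21 (limma adjusted p = 0.936). Its repeat minus first exposure difference was -0.07 (adjusted p = 0.867), and it was 0.16 with array weights.

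Il1r2, the decoy receptor gene, was at 56.4 and 60.3 CPM in naive skin, 26.0, 19.3 and 73.1 in first exposure, 36.2, 77.4 and 64.1 in ticks 2x, 63.5, 47.1 and 58.0 in ticks 3x, and 56.2 in the saliva immune library. First exposure held the 2 lowest values and also the second highest of the 12. The log2 difference of repeat minus first exposure was 0.73 (limma adjusted p = 0.273), and without first exposure replicate 3 it was 1.29 (adjusted p = 0.0231). In the fit without that replicate 2260 of 16943 genes passed. The log2 ratio of decoy over signalling receptor, Il1r2 over Il1r1, ran from 2.85 in first exposure replicate 2 to 5.26 in ticks 2x replicate 3. It was 3.59 ± 0.83 in first exposure (SD, n = 3) and 4.46 ± 0.54 in repeat exposure (n = 6), a difference of 0.87 (exact permutation p = 0.107, adjusted p = 0.321). For bitten minus naive it was -0.0045 (exact permutation p = 0.982).

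The shared accessory protein gene Il1rap ran from 20.6 to 50.8 CPM, with means of 38.6 ± 8.16 in naive (SD, n = 2), 27.9 ± 7.31 in first exposure, 35.2 ± 13.5 in ticks 2x and 36.7 ± 6.43 in ticks 3x (n = 3 each). The IL-36 receptor gene Il1rl2 ran from 80.7 to 168 CPM, with means of 120 ± 10.7, 116 ± 45.5, 104 ± 24.6 and 138 ± 23.4 in the same groups. Groups overlapped for both genes in bitten against naive and in repeat against first exposure. On the log2 scale Il1rap differed by -0.24 in bitten minus naive (limma adjusted p = 0.792) and by 0.35 in repeat minus first exposure (adjusted p = 0.39). Il1rl2 differed by -0.06 (adjusted p = 0.957) and by 0.09 (adjusted p = 0.843), both with either sign when single libraries were left out.

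Taking the 9 genes as a list, 0 of 9 passed the limma threshold in any of the 8 comparisons, and voom weights on estimated reads also gave 0 of 9. Among all genes tested the same rule called 0.041% for bitten against naive, 0.82% for repeat against first exposure, 0.0117% for first exposure against naive, 0.0352% for ticks 2x against naive and 0.00586% for ticks 3x against naive. It called 0% for ticks 2x against first exposure, ticks 3x against first exposure and ticks 3x against ticks 2x. With so few genes called anywhere, a count of 0 is close to this background. For repeat against first exposure, 2 of 9 genes (Il1r2 and Il18) passed without first exposure replicate 3, where 2260 of all genes did, and 8 of 9 passed with array weights, where 8695 of all genes did. At an unadjusted p of 0.05, 1 of 9 genes (Il1b) passed in first exposure against naive, in ticks 2x against first exposure and in repeat against first exposure, where 16.4%, 15.9% and 20.6% of all genes did.

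Few of the 9 genes had groups that did not overlap. Il1b was lower in every first exposure library than in every naive one, as were 14% of all genes, and higher in every ticks 2x library than in every first exposure one, as were 6.9%. In ticks 3x against naive, Il1a and Il18 did not overlap upwards, as did 15.5% of all genes, and Il1r1 downwards, as did 9.58%. In bitten against naive and repeat against first exposure, 0 of 9 genes had groups that did not overlap, against 7.33% and 8.25% of all genes. The count was also 0 of 9 in ticks 2x against naive, ticks 3x against first exposure and ticks 3x against ticks 2x, against 27.6%, 21.3% and 11.7% of all genes. The single saliva immune library was above both naive libraries for 5 of 9 genes, as it was for 44.2% of all genes.

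The median log2 difference of the 9 genes in repeat minus first exposure was 0.44, with 8 of 9 above 0, against a median of -0.06 over all genes. In bitten minus naive it was -0.06, with 4 of 9 above 0, against 0.06 over all genes.

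**Figure D3:**
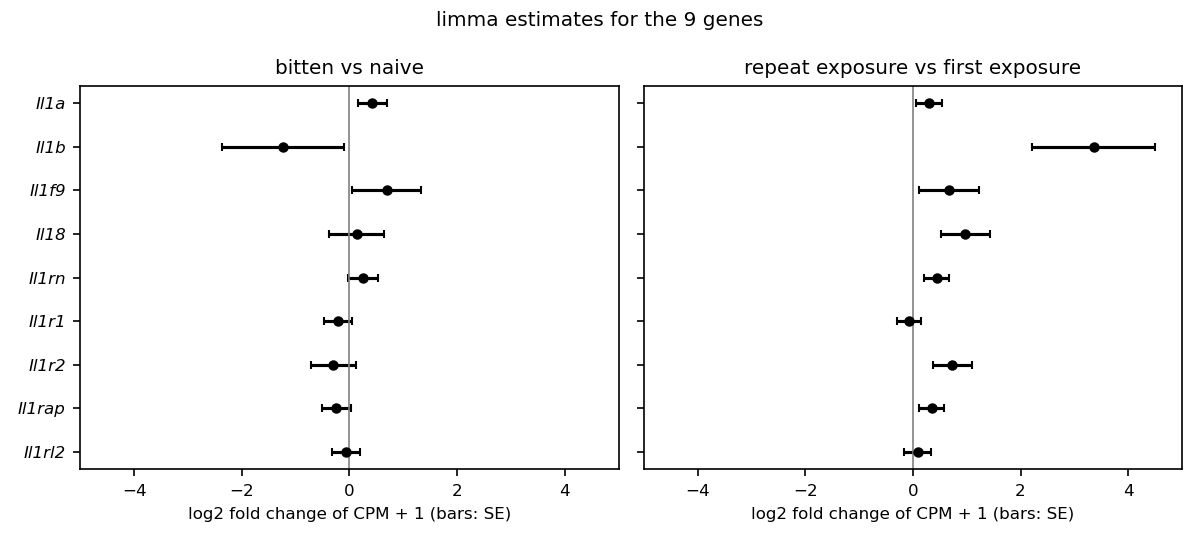
Log2 fold change of CPM + 1 (points) with limma's SE (bars) for the 9 genes in bitten against naive skin and in repeat against first exposure. In the second panel 8 of 9 estimates lie above 0, with Il1b at 3.36, and none passed the adjusted threshold.

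Within a group, the 9 genes were mostly highest in the same library. First exposure replicate 3 had the highest value of its group for 9 of 9 genes, ticks 2x replicate 2 for 9 of 9 and naive replicate 2 for 9 of 9, while in ticks 3x replicate 1 was highest for 6 of 9. Over the 12 libraries all 36 pairs of the 9 genes had a Pearson r above 0 on the log2 scale, from 0.322 for Il1r1 with Il1r2 to 0.949 for Il1rn with Il1f9, with a median of 0.719, and 26 of 36 had a permutation p, adjusted over the same 72 relations as the marker lists below, under 0.05. The points share library, depth and tissue makeup. How often these patterns hold over all genes was not counted. First exposure replicate 3 and ticks 2x replicate 2 were also highest of their groups for several marker lists. These were the means of the keratinocyte, fibroblast, monocyte and macrophage, and T cell lists. The shared pattern is thus not particular to the family. First exposure replicate 3 also stood apart in its hair follicle markers. The mean log2(CPM + 1) of the 17 markers was 1.58 there and 9.67 and 9.99 in replicates 1 and 2, against 0.81 in naive replicate 2, 8.06 in naive replicate 1 and 2.71 in ticks 2x replicate 2. Over the 12 libraries the Pearson r of the follicle mean with the 9 genes ran from -0.773 for Il1r2 to -0.0572 for Il1r1. The adjusted permutation p was under 0.05 for Il1r2 (0.00428) and Il18 (r = -0.7115, adjusted p = 0.0162) and above it for the others. By Spearman rho neither gene passed (permutation test, adjusted p = 0.0621 and 0.145). In naive skin and first exposure, the library with the lowest follicle mean (replicate 2 and replicate 3) was highest for 9 of 9 genes. Ticks 2x replicate 3 (0.59) and ticks 3x replicate 3 (0.61) had the lowest follicle means of their groups and were highest for 0 of 9 genes, and ticks 3x replicate 1, highest for 6 of 9, was at 5.43. With this mean as a covariate 0 of 9 genes passed the limma threshold in any comparison. The count was also 0 of 9 without the covariate, so it cannot show what the covariate changed. Il1rl2 in repeat minus first exposure was 0.09 without the covariate and -0.01 with it. The part of follicle content in these levels was not tested.

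Marker lists of cell types, among them the cells known to make these cytokines, were correlated with several of the 9 genes. The summed level of 9 neutrophil markers was 32.9 to 87.2 CPM in naive skin, 22.1 to 37.4 in first exposure, 43.1 to 614 in ticks 2x, 28.4 to 130 in ticks 3x and 108 in the saliva immune library. Hdc, on this list, is also on the list of mast cell markers. In ticks 3x replicate 2 it was at 62.3 of the summed 129 CPM. In ticks 2x replicate 2, S100a9 was at 273, Hdc at 117 and S100a8 at 95.7 of the 614 CPM. Ly6g, a defining marker of mouse neutrophils, was below the floor in every library outside ticks 2x, and Stfa2l1 in every first exposure library. Il1b was correlated with the mean of the neutrophil list (n = 12, Pearson r = 0.893, permutation p = 3e-05, adjusted p = 0.000309 over 72 relations; Spearman rho = 0.909, permutation p = 0.00012, adjusted p = 0.00134). Without ticks 2x replicates 2 and 3, the libraries farthest from the median, r was 0.795, and within the 8 EF19-6 libraries it was 0.907. The EF19-4 series holds only 4 libraries, too few for a value. Monocyte and macrophage markers, 10 in all and each above the floor in every library, summed to 754 to 1165 CPM in naive skin, 391 to 1578 in first exposure, 1138 to 2391 in ticks 2x and 698 to 2191 in ticks 3x. Il1b had a Pearson r of 0.797 with the mean of this list (n = 12, permutation test, adjusted p = 0.00593). Its r with the remaining lists ran from -0.433 for hair follicle to 0.748 for T cells, so neutrophil markers were not alone in moving with it. The part of cell numbers in the Il1b levels was not tested.

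Il1f9 had the highest correlation of the 9 genes with the mean of the 8 keratinocyte markers. Pearson r was 0.958 (n = 12, permutation p = 1e-05, the smallest these permutations can give, adjusted p = 0.00018 over 72 relations), with a Spearman rho of 0.972 (permutation p = 1e-05, adjusted p = 0.00036). Pearson r was 0.938 without the 2 libraries farthest from the median and 0.931 within the 8 EF19-6 libraries. For Il18, Il1rn, Il1a and Il1rl2 the r with this list was 0.922, 0.909, 0.901 and 0.875 (adjusted permutation p of 0.00018 to 0.00144), and for Il1b it was 0.518 (permutation test, adjusted p = 0.109). A list of 5 wound keratinocyte markers (Krt6a, Krt6b, Krt16, Sprr1b and Sprr2d) moved less closely with the 9 genes. Its r ran from -0.142 for Il1r2 to 0.518 for Il1r1 and was 0.400 for Il1f9. Other marker lists moved with some of these genes as closely as the 8 keratinocyte markers, given here as a description. Il1rn had an r of 0.947 with the T cell list, above its r with keratinocytes. Il18 had an r of 0.935 with Langerhans and dendritic cells, also above, and of 0.896 with T cells, and Il1f9 had an r of 0.888 with T cells. The T cell markers, 6 in all, summed to 12.8 to 15.5 CPM in naive skin, 2.01 to 28.7 in first exposure, 11.9 to 58.1 in ticks 2x and 21.8 to 45.9 in ticks 3x. The keratinocyte markers summed to 10274 to 17668 CPM in naive skin, 7780 to 24555 in first exposure, 10839 to 25554 in ticks 2x and 15388 to 23329 in ticks 3x, so that the groups overlapped. The part of these cell types in the levels of the family was not tested.

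**Figure D4:**
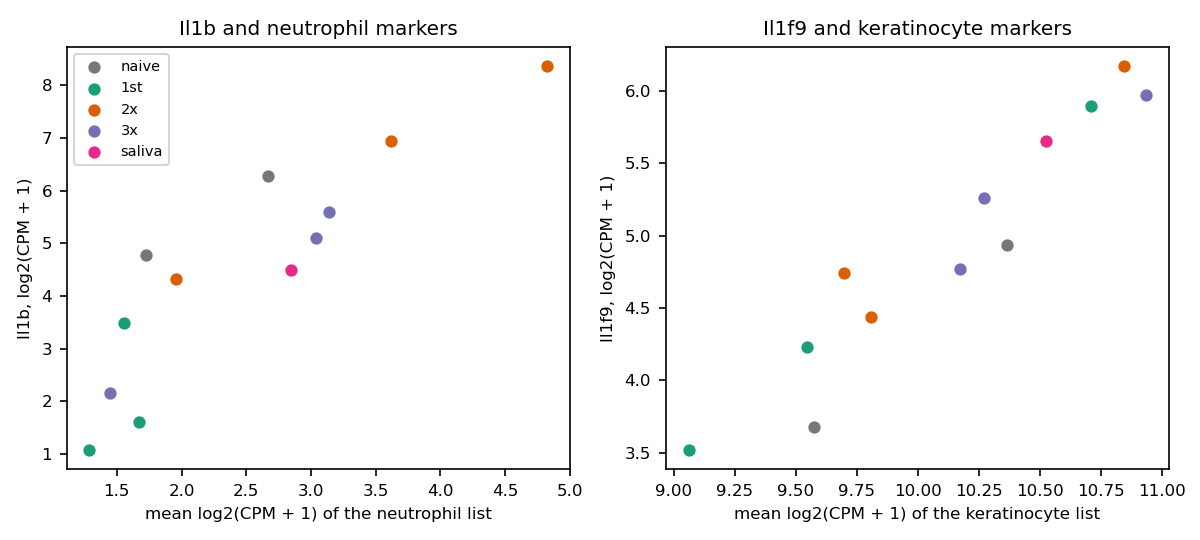
Level of Il1b against the mean of the neutrophil markers, and level of Il1f9 against the mean of the keratinocyte markers, both as log2(CPM + 1), with 1 point per library coloured by group. Pearson r is 0.893 in the left panel and 0.958 in the right panel over 12 libraries.

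The rest of the pathway was read from lists of genes, and 0 members of any of these lists passed the limma threshold in any of the 8 comparisons. Of the 11 pathway genes named from here on, 7 passed in repeat against first exposure without first exposure replicate 3, where 2260 of all genes did. Of the other ligands and binding proteins of the family, 6 of 6 were tested and 5 of 6 were above 0 in repeat minus first exposure, with a median log2 difference of 0.35. The 2 with the highest mean were Il33, an alarmin of barrier cells (1.16, limma adjusted p = 0.339), and Il1f5, the older symbol of the IL-36 receptor antagonist gene Il36rn (0.40, adjusted p = 0.541). Of the other receptors, 4 of 4 tested were above 0, with a median of 1.33. Among them were Il1rl1, the receptor gene for the Il33 product (1.73, SE 0.47, unadjusted p = 0.00403, adjusted p = 0.105), and Il18r1, a chain of the interleukin-18 receptor (1.06, adjusted p = 0.208).

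Of the genes for ligand processing and release, 15 of 17 were tested and 14 of 15 were above 0, with a median of 0.67. The most abundant were Ctss, a lysosomal protease (1.56, limma adjusted p = 0.213), and Nlrp10, a member of the NOD-like receptor family (0.74, adjusted p = 0.272). Nlrp3, the inflammasome sensor that leads to cleavage of interleukin-1 beta and interleukin-18, was chosen after its values were seen. It ran from 0.501 to 20.9 CPM, and repeat minus first exposure was 1.91 (SE 0.63, unadjusted p = 0.0126, adjusted p = 0.153). Of 18 signalling genes, 13 were above 0 with a median of 0.14, including Tab2, an adaptor of the TAK1 kinase (0.14, adjusted p = 0.388), and Nfkbia, the inhibitor of NF-kB that is itself an NF-kB target (1.34, adjusted p = 0.122).

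Of 26 known target genes of interleukin-1 and IL-36 signalling, 22 were tested, and 22 of 22 were above 0 in repeat minus first exposure with a median log2 difference of 1.52, against -0.06 over all genes. At an unadjusted p of 0.05, 12 of 22 passed, where 20.6% of all genes did. The most abundant were Nfkbiz, a nuclear regulator induced by interleukin-1 (1.57, SE 0.49, limma adjusted p = 0.135), and Tnfaip3, an inhibitor of NF-kB signalling (1.36, SE 0.55, adjusted p = 0.206). Against naive skin the medians were -0.80 in first exposure, with 18 of 22 below 0, 0.82 in ticks 2x, with 18 of 22 above 0, and 0.12 in ticks 3x, with 14 of 22 above 0. For all bitten libraries the median was 0.17, with 12 of 22 above 0, where Tnfaip3 was at -1.67 (unadjusted p = 0.0264, adjusted p = 0.387). S100a8 and S100a9 are on both the target list and the neutrophil list, whose 8 tested markers were all above 0 in repeat minus first exposure with a median of 1.62. Lists outside the pathway were as one-sided there. All tested markers of adipocytes (6, median 1.25), fibroblasts (6, 0.39), T cells (6, 1.11) and erythrocytes (4, 1.51) were above 0. Those of hair follicle (17, -2.82) and skeletal muscle (6, -1.12) were all below 0. The part of tissue makeup in the target genes was not tested.

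Genes of at least 5 CPM whose pattern over the 12 libraries was most like each member were found by Pearson r of log2(CPM + 1). Il1b was nearest to Has1, a hyaluronan synthase (r = 0.964), and to Cxcl2, a neutrophil chemokine (0.956). Il1rn was nearest to Tmprss11g, a serine protease gene (0.981), and Serpinb3b, a serpin (0.969). Il1f9 was nearest to Slc11a2, an iron transporter (0.98), and again to Serpinb3b (0.979). Il18 was nearest to Wnt7b, a Wnt ligand (0.991), and H2-T22, a non-classical MHC gene (0.988), and Il1a to Yipf2 (0.979) and Abhd12b (0.963). Among the receptors, Il1r2 was nearest to Il34, a ligand of the CSF1 receptor (0.979), and Tnfrsf21, a death receptor (0.972). Il1rap was nearest to Lacc1 (0.946) and Cpne3 (0.946), Il1rl2 to Trip11 (0.956) and Slc25a30 (0.955), and Il1r1 to Sirpa, an inhibitory receptor (0.913), and Ppp2r5c (0.904). Such values are a description over 12 libraries that share depth and tissue makeup.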

How the data were processed

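RNA-seq of 12 mouse skin libraries was used. The submitters' processing notes name STAR, Partek 8.0.19 and the build GRCm38.p6. The annotation and the counting program were not given in the sources used here. The authors deposited CPM values, with 0.0001 added to every cell. The columns summed to 998572 to 998966, 25 gene names had become dates and 2 names occurred more than once. Low values, from 0.01 to 3 CPM, were whole multiples of 1 step (within 0.02 reads) for 73.7% to 79.4% of values, which gave the estimated depth. Whole reads could not be recovered for all genes, so the tests were run on log2(CPM + 1).

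Genes reaching 1 CPM in 2 or more of 11 libraries were fitted with limma 3.58.1 in R 4.3.3 with a variance trend, and p-values were Benjamini-Hochberg adjusted over 17064 genes (threshold 0.05). Fold changes are on the log2(CPM + 1) scale, which understates changes of low genes. A fit of 4 groups gave 7 comparisons, and a fit of 3 groups gave repeat against first exposure. The saliva immune library, a single sample, was described only in the comparisons of groups and ratios, and it was among the 12 libraries of the correlations. Ratios were tested by exact permutation and correlations by 100000 permutations (scipy 1.17.1). The limma fit was run on simulated data with the same dispersion for every gene, to check that set fold changes were recovered. Such data lack the differences in tissue makeup between these libraries, so the check does not carry over to the error rate here. Named genes were all 9 members, the called members of each pathway list (where none was called, the 2 with the highest mean CPM) and the 2 genes most like each member, leaving out predicted and clone-named genes. Alternatives were pseudocounts of 0.5 and 0.1, no filter, a filter at 5 CPM, median-of-ratios and quantile scaling, only the groups compared, only the EF19-6 series, array weights (gene by gene), voom weights, a hair follicle covariate and leaving out each library. The members, lists and comparisons were chosen with earlier results of these data known.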

Additional observations from a re-analysis of the deposited data

Results flagged for a closer look

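The saliva immune library entered no comparison between groups, though it is among the 12 libraries of the correlations. For 5 of the 9 genes its level was above both naive libraries: Il1a at 9.14 CPM, Il1rn at 89.4 CPM, Il1f9 at 49.3 CPM, Il18 at 33.5 CPM and Il1rl2 at 139 CPM. The same held for 44.2% of all genes tested. With 1 library this difference was not tested. In 18 tests of the 9 genes for a single library far from the rest of the repeat exposure or the bitten group, 0 libraries stood out, where chance gives about 1 in 20.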

How the results depend on the processing

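No paired analysis was possible because the labels carry no replicate numbers and the groups share none. Over 22 alternative settings, 11 of them leaving out 1 library, the 27 fold changes reported for the 9 genes gave 561 values, of which 10 had the other sign. The 12 reported for pathway genes gave 251 values, 0 of them with the other sign, and 18 passed, 11 with array weights and 7 without first exposure replicate 3. With array weights, which gave first exposure replicate 1 a weight of 5.72 and replicate 3 a weight of 0.276, 2 of the 9 genes passed in first exposure against naive, 2 in ticks 2x against first exposure, 8 in ticks 3x against first exposure and 8 in repeat against first exposure. Of all 17064 genes, 4375, 3189, 8205 and 8695 passed in these 4 comparisons. In the leave-one-out fits 0 to 2 of the 9 genes passed in ticks 3x against first exposure and in repeat against first exposure. The 2 genes were Il1r2 and Il18, without first exposure replicate 3, at log2 differences of 1.28 (adjusted p = 0.0444) and 1.81 (adjusted p = 0.0411) for ticks 3x in limma. Without that replicate, 1372 of 16943 genes passed for ticks 3x and 2260 for repeat exposure. Leave-one-out ranges for Il1b were -4.22 to -2.72 in first exposure minus naive, 2.77 to 4.07 in repeat minus first exposure, 3.57 to 5.59 in ticks 2x and 1.57 to 3.29 in ticks 3x minus first exposure, and -3.36 to -1.19 in ticks 3x minus ticks 2x. Il1a in repeat minus first exposure ran from 0.038 to 0.55, and Il1rn in bitten minus naive from 0.0057 to 0.49. Il1r1 in repeat minus first exposure was 7.6e-06 with quantile normalization, 0.16 with array weights and -0.187 to 0.02093 in the leave-one-out fits. Il1rl2 in repeat minus first exposure was -0.01117 with the hair follicle covariate and -0.14 to 0.38 in the leave-one-out fits. Leave-one-out ranges for bitten minus naive were -0.15 to 0.41 for Il18, -0.156 to 0.0334 for Il1rl2 and -0.14 to 0.16 for Il1r2 over Il1r1. Over all genes, the 140 called in repeat against first exposure became 7 to 8695 under the other alternatives and 0 to 2260 in the leave-one-out fits, and the 2 called in first exposure against naive became 2 to 4375 and 0 to 600, the upper values with array weights and without first exposure replicate 3. The 0 called in ticks 2x against first exposure became up to 3189 and 137, and in ticks 3x against first exposure up to 8205 and 1372, with the same settings. The 7 called in bitten against naive became 1 to 63 and 0 to 8. Il1r1 gave no value under the filter at 5 CPM. The causes were not tested.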
